A study of Homo sapiens with 2 samples.

Results

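The 10 glycolysis genes described here were chosen by name, to cover the path from glucose uptake to lactate: SLC2A1, HK2, GPI, ALDOA, TPI1, GAPDH, PGK1, ENO1, PKM and LDHA. Each symbol matched 1 Ensembl identifier in GENCODE release 44 (hg38), so that 10 of the 58735 rows of the count tables were members. The RNA came from MCF10a-Snail-ER cells, human mammary epithelial cells that stably express the repressor Snail fused to the estrogen receptor, so that tamoxifen can switch the fusion on. Per the labels, the cells had received 100 nM tamoxifen for 1 day, in a medium with horse serum, EGF, hydrocortisone, cholera toxin and insulin. Matched polyadenylated RNA was sequenced as 1 direct RNA library on a Nanopore MinION, where native RNA strands are read without amplification, and as 1 Illumina TruSeq stranded mRNA library, where fragmented RNA is copied to cDNA and amplified. Both libraries shared the line, the construct and the treatment, and no untreated library was analysed here. The only comparison was therefore between the libraries, and nothing below measures a response to Snail.

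Summed over genes, the counts came to 403235 by Nanopore and 191741714 by Illumina. Thus 1 count stood for 2.48 and 0.00522 CPM (counts per 1000000 counts of the library). These sums are not numbers of reads wherever 1 read was counted to several genes. With 1 library per platform no value has a replicate. Every interval (95% Wilson unless stated) and every test covers counting error between these libraries only, and amplified reads are not independent molecules. The 5 markers of mammary basal epithelium that were looked up (KRT5, KRT14, KRT17, TP63 and ITGB4) were all detected in both libraries, with sums of 3167 CPM (Nanopore) and 2594 CPM (Illumina). General epithelial markers summed to 298 and 350 CPM, nearly all of it KRT18, and the mesenchymal markers VIM, FN1 and CDH2 to 1810 and 2116 CPM. The 4 fibroblast markers summed to 2.48 and 7.15 CPM. The 2 endothelial markers summed to 5.11 CPM by Illumina and had no Nanopore count, and of the adipocyte markers ADIPOQ was at 0 in both and PLIN1 had 6 Illumina counts. Of the 3 immune markers CD3E was at 0 in both and PTPRC had 2 Illumina counts, while CD68, a lysosomal protein also made outside the immune system, gave nearly all of 32.2 and 45.1 CPM. Since RNA was taken in bulk, a lower level can mean fewer cells with a transcript or less of it per cell, and these cannot be told apart.

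Glycolysis turns glucose into pyruvate in the cytosol and yields ATP and NADH. Its early reactions spend ATP to trap and split the sugar, its later ones recover ATP, and lactate dehydrogenase reduces pyruvate to lactate so that NAD+ is returned to the pathway. Proliferating epithelial cells run it at a high rate even with oxygen present, and many of its genes are known targets of hypoxia-inducible factors, which bind DNA at the core letters ACGTG or GCGTG. These cores were looked for as background on the genes, since without an untreated library the counts do not bear on them. A promoter from RefSeq (GRCh38.p14, 250 bases before to 50 after the start) was found for all 10 genes, and the one nearest the start of the canonical transcript was read on both strands. Its start was that of the canonical transcript in 8 genes, and lay 204 bases from it in GPI and 747 bases from it in GAPDH. Of the 10 promoters, 9 held at least 1 core and that of TPI1 held none, against 48.4% of all 35116 promoters in the table. ACGTG was present in 6 of the 10, against 21.4%, and GCGTG in 6, against 36.5%. Both cores hold the pair CG, and the GC content of the 10 promoters ran from 56.7% (GPI) to 74.3% (HK2). The comparison was not matched for GC content, and its part in these shares was not tested. ACGTG overlaps its own reverse complement where it is preceded by C, as in the LDHA and GAPDH windows. A window from each of 3 genes with a core is printed to show these letters in place, with the core in capitals, at chr11:18394467-18394491 (+), chr12:6535174-6535198 (+) and chr1:8878744-8878768 (-):
LDHA: cccgactcacACGTGggttcccgca
GAPDH: ctgcggggtcACGTGtcgcagagga
ENO1: agctgaggggGCGTGccccggaggc
A match is a description of the letters and not a binding site.

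All 10 genes were detected by both platforms, and GAPDH and ENO1 led in both. SLC2A1 and HK2, at the entry to the pathway, were the least abundant by Nanopore CPM and by Illumina count per base, and GAPDH, ENO1, PKM and LDHA the most. SLC2A1 (ENSG00000117394, chromosome 1, 42925353 to 42958893) encodes GLUT1, the basal glucose transporter. It had 13 Nanopore counts, 32.2 CPM (18.8 to 55.2), and 5163 Illumina counts, 26.9 CPM. HK2 (ENSG00000159399, chromosome 2, 74834127 to 74893359) encodes the inducible hexokinase, which phosphorylates glucose at the outer mitochondrial membrane. It had 5 Nanopore counts, 12.4 CPM (5.30 to 29.0), and 11160 Illumina counts, 58.2 CPM. SLC2A1 was thus the only member with a higher CPM by Nanopore, by less than its counting error, and HK2 the one furthest below its Illumina level.

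The middle reactions were read more deeply. GPI (ENSG00000105220, chromosome 19, 34359480 to 34402413), the isomerase of glucose-6-phosphate, had 81 Nanopore counts, 201 CPM (162 to 249.6), and 88407 Illumina counts, 461 CPM. ALDOA (ENSG00000149925, chromosome 16, 30064164 to 30070457), the aldolase that splits the sugar into triose phosphates, had 282 counts, 699 CPM (622 to 786), and 234651 counts, 1224 CPM. TPI1 (ENSG00000111669, chromosome 12, 6867119 to 6870948), which interconverts the triose phosphates, had 204 counts, 506 CPM (441 to 580.2), and 178722 counts, 932 CPM. In each of these 3 genes the Nanopore interval lay below the Illumina level.

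GAPDH and PGK1 carry out the oxidation of the triose phosphate and the ATP-yielding step after it. GAPDH (ENSG00000111640, chromosome 12, 6534512 to 6538374) had 1420 Nanopore counts, 3522 CPM (3343 to 3709), and 1017589 Illumina counts, 5307 CPM. It ranked 15th of all genes by Nanopore count and 8th by Illumina count. PGK1 (ENSG00000102144, chromosome X, 77910739 to 78129295), phosphoglycerate kinase, had 162 counts, 402 CPM (344 to 469), and 124223 counts, 648 CPM. PGK1 was thus far below GAPDH in both libraries, also per base.

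The last reactions were again abundant. ENO1 (ENSG00000074800, chromosome 1, 8861000 to 8879190), the enolase found in most tissues, had 692 Nanopore counts, 1716 CPM (1593 to 1849), and 675101 Illumina counts, 3521 CPM. PKM (ENSG00000067225, chromosome 15, 72199029 to 72231819), pyruvate kinase of muscle and proliferating cells, had 438 counts, 1086 CPM (989 to 1193), and 575286 counts, 3000.3 CPM. LDHA (ENSG00000134333, chromosome 11, 18394560 to 18408425), the muscle-type subunit of lactate dehydrogenase, had 471 counts, 1168 CPM (1067 to 1278), and 406731 counts, 2121 CPM. Gene counts do not separate splice forms, so the M1 and M2 forms of PKM could not be told apart.

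**Figure D1:**
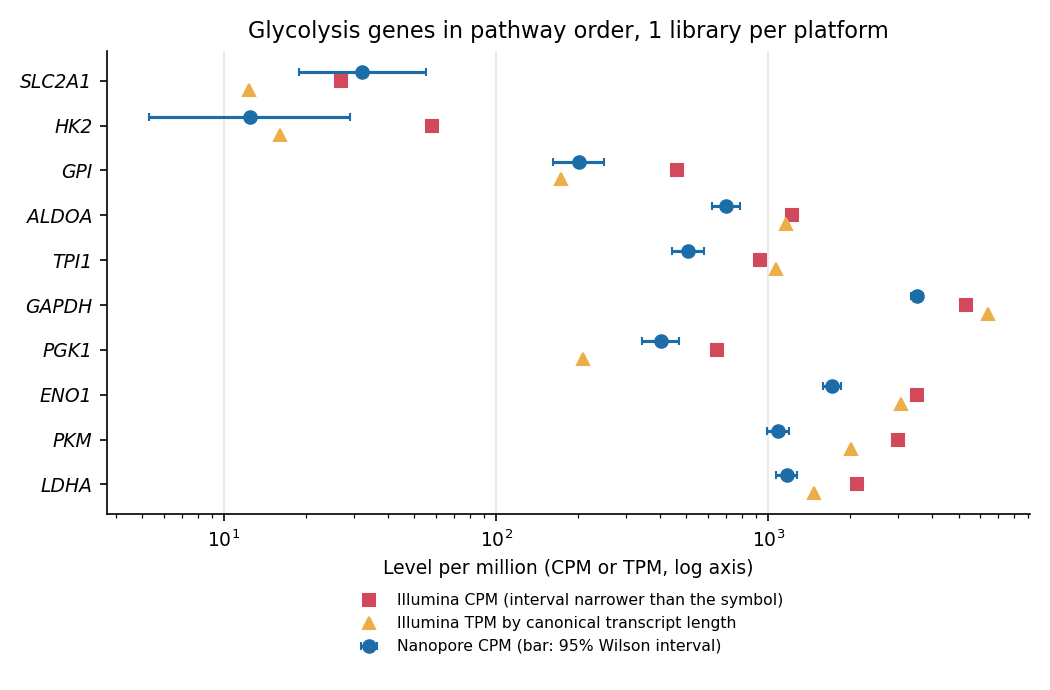
Level of each of the 10 glycolysis genes, in pathway order from top to bottom, on a log axis: Nanopore CPM (circles, bars are 95% Wilson intervals), Illumina CPM (squares) and Illumina TPM by canonical transcript length (triangles), 1 library per platform. GAPDH is highest on all 3 scales, from 3522 to 6401, and SLC2A1 and HK2 lie at 58.2 or less on each.

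Levels of different genes can be compared only per transcript. A direct RNA read was taken as 1 molecule, so Nanopore CPM was used as it is, and Illumina counts were divided by the length of the Ensembl canonical transcript and scaled to 1000000 (TPM). By Nanopore CPM the order was GAPDH, ENO1, LDHA, PKM, ALDOA, TPI1, PGK1, GPI, SLC2A1 and HK2. By Illumina TPM it was GAPDH (6401), ENO1 (3064), PKM (2017), LDHA (1467), ALDOA (1156), TPI1 (1069), PGK1 (209), GPI (173), HK2 (16.0) and SLC2A1 (12.3). Thus 6 of the 10 genes held the same rank, and the others were the neighbouring pairs LDHA and PKM, and SLC2A1 and HK2. With canonical length, these are also the neighbours that the Nanopore counts did not separate. The ratio of LDHA to PKM reads was 1.08 (exact 95% interval 0.942 to 1.23) and that of SLC2A1 to HK2 was 2.60 (0.870 to 9.31). For the other 7 neighbouring pairs the interval lay above 1, most narrowly for TPI1 over PGK1, at 1.26 (1.02 to 1.56). The order by Illumina changed with length. By union exonic length, which counts every annotated exon, LDHA (953) stood above PKM (948), as by Nanopore. TPI1 (935) then stood above ALDOA (866), though the Nanopore counts put ALDOA over TPI1 at 1.38 (1.15 to 1.66). With canonical length, ENO1 stood at 48.7% of GAPDH by Nanopore CPM and 47.9% by Illumina TPM, and PKM at 30.8% and 31.5%. By union exonic and mean transcript length the Illumina values moved to 30.5% and 75.1% for ENO1, and to 15.8% and 46.7% for PKM. The close values thus held for canonical length only. With canonical length PGK1 differed more, at 11.4% of GAPDH by Nanopore CPM and 3.26% by Illumina TPM. This value rests on the canonical PGK1 transcript of 4812 bases. With the mean length of its annotated transcripts, 1590 bases, PGK1 stood at 9.26% of GAPDH by Illumina TPM, and with union exonic length at 5.38%.

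The 10 genes took up 0.934% of the summed gene counts by Nanopore (0.905 to 0.965%). By Illumina they took up 1.73% (1.73 to 1.73%). The size of this gap depended on the length used. As TPM the Illumina share was lower by canonical (1.56%) and union exonic length (1.20%), but not by mean transcript length (1.75%). GAPDH alone made up 37.7% of the summed Nanopore CPM of the 10 genes and 41.1% of their summed Illumina TPM.

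In CPM, 9 of the 10 genes lay below 0 on the log2 ratio of Nanopore to Illumina, as did 63.2% of all tested genes. The ratio, taken after adding 1 CPM to each level, was -2.14 for HK2, -1.46 for PKM, -1.19 for GPI and -1.04 for ENO1. It was -0.88 for TPI1, -0.86 for LDHA, -0.81 for ALDOA, -0.69 for PGK1 and -0.59 for GAPDH, and 0.25 for SLC2A1. The two-sided exact binomial test with Benjamini-Hochberg adjustment over the 12414 genes that averaged 5 CPM or more called all 9 at an adjusted p under 0.05, from 1.07e-141 for PKM to 4.34e-05 for HK2. The adjusted p of SLC2A1 was 0.714. Of all tested genes, 27.2% were called lower by Nanopore under the same rule and 20.2% higher. Calls are more frequent among abundant genes: of the 1707 tested genes averaging 100 CPM or more, a restriction chosen with the values known, 48.4% were called lower by Nanopore, as were all 8 members among them. With a 4-fold ratio also required, only HK2 was called, against 7.31% of all tested genes. With a 2-fold ratio HK2, PKM, GPI and ENO1 were, against 21.7%. The members' median ratio was -0.87 on the log2 scale, beside -0.42 for all tested genes and -0.34 for those of at least 100 CPM.

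Length moved these ratios more than any other choice. Against Illumina TPM by canonical length, the ratio stayed below 0 with an adjusted p under 0.05 for TPI1 (-1.08), PKM (-0.89), GAPDH (-0.86), ENO1 (-0.84), ALDOA (-0.72) and LDHA (-0.33), with the largest adjusted p 1.83e-06 for LDHA by the exact binomial test. Among all tested genes 9.86% were called lower by Nanopore on this scale and 31.4% higher. The same scale put SLC2A1 (1.32) and PGK1 (0.94) higher by Nanopore, with exact binomial adjusted p-values of 0.0114 and 6.57e-13, and left HK2 (-0.35) and GPI (0.21) without a call. The median of the 10 genes was then -0.54, beside 0.48 for all tested genes. With union exonic length the ratios of GPI, PGK1, PKM and LDHA lay above 0, like that of SLC2A1. The same test then called these 5 genes higher by Nanopore and 3 lower, against 31.2% and 10.6% of all tested genes. With mean transcript length SLC2A1 alone lay above 0, and 0 members were called higher and 8 lower, against 23.7% and 15.8%. TPI1, GAPDH and ALDOA were called lower by Nanopore on the CPM scale and under all 3 lengths. How many of all tested genes were called lower on every one of these scales was not counted. GAPDH and ALDOA each overlap a gene with an equal or nearly equal Nanopore count, as given below.

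**Figure D2:**
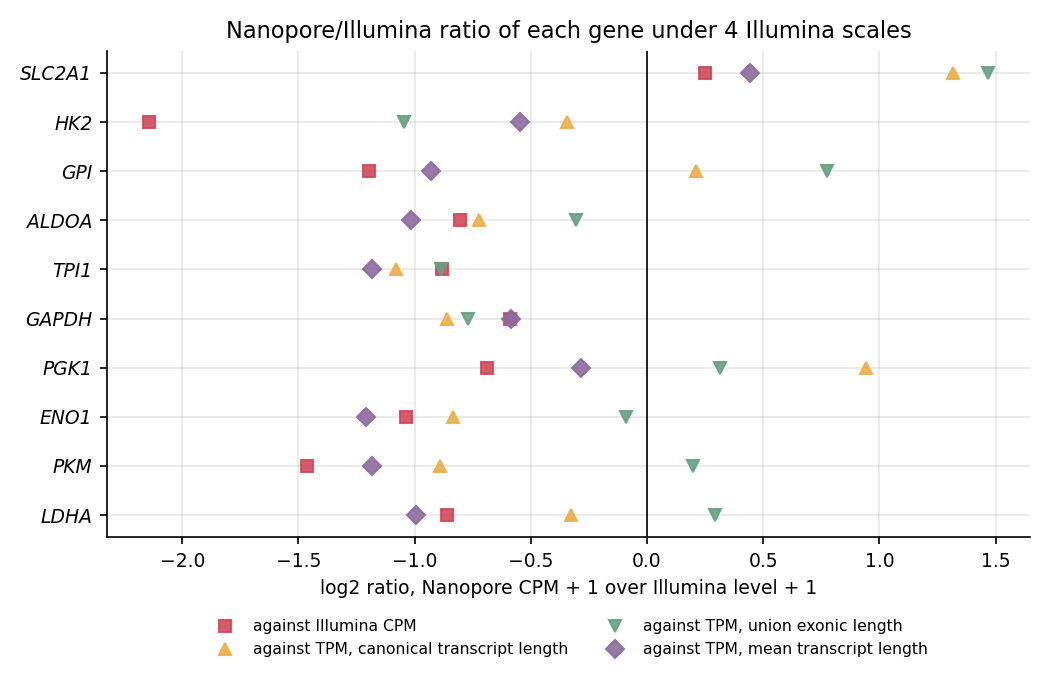
Log2 ratio of Nanopore CPM plus 1 over the Illumina level plus 1 for each gene, with the Illumina level as CPM or as TPM by canonical, union exonic or mean transcript length; the vertical line marks equal levels. HK2, ALDOA, TPI1, GAPDH and ENO1 lie left of the line on all 4 scales and SLC2A1 right of it, while GPI, PGK1, PKM and LDHA change side.

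Most glycolytic steps have several isoenzymes, encoded by separate genes with different tissue use. SLC2A1 held all 13 Nanopore counts of the transporter pair with SLC2A3, the high-affinity transporter of neurons, and 96.2% (95.7 to 96.7%) by Illumina count. HK2 was the lesser hexokinase: it held 5 of 38 Nanopore counts of its family, 13.2% (5.75 to 27.3%), and 11.3% of the Illumina counts per base of canonical transcript. The rest was almost all HK1, the housekeeping hexokinase, with 32 Nanopore counts (79.4 CPM) and 56133 Illumina counts (293 CPM). HK3 was at 0 in both. Of the 95 Nanopore counts of phosphofructokinase, which sets the pace of glycolysis, the platelet form PFKP held 63.2% (53.1 to 72.2%), beside 65.7% of the Illumina counts per base.

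ALDOA held 97.9% (95.5 to 99.0%) of the aldolase counts by Nanopore and 98.7% by Illumina per base, with the brain-type ALDOC making up nearly all the rest. GAPDH and PGK1 held all Nanopore counts of their families and PKM 438 of 439. The testis forms GAPDHS and PGK2 had 0 Nanopore counts, and PKLR, the liver and red cell pyruvate kinase, had 1. For lactate dehydrogenase both of the 2 main subunits held a large share. LDHA held 471 of 801 Nanopore counts, 58.8% (55.4 to 62.2%), and LDHB, the heart-type subunit, 330. By Illumina, LDHA held 63.0% of the counts (62.9 to 63.1%) but 49.8% per base of canonical transcript, since its canonical transcript has 2241 bases and that of LDHB 1303. By union exonic length the share was 45.8% and by mean transcript length 55.9%, so the data do not fix which subunit was the more abundant by Illumina.

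Enolase stood apart. ENO1 held 692 of 1117 Nanopore counts of its family, 62.0% (59.1 to 64.8%), but 99.9% of the Illumina counts. The remaining Nanopore counts were all of ENO3, the muscle enolase, with 425 counts (1054 CPM) by Nanopore and 713 counts (3.72 CPM) by Illumina, a log2 ratio of 7.80. ENO3 (chromosome 17, 4948092 to 4957131) overlaps PFN1, the abundant actin-binding profilin, on the opposite strand, with 111 exonic bases in common. PFN1 had 481 Nanopore and 169598 Illumina counts. Whether reads of PFN1 enter the Nanopore count of ENO3 was not tested.

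**Figure D3:**
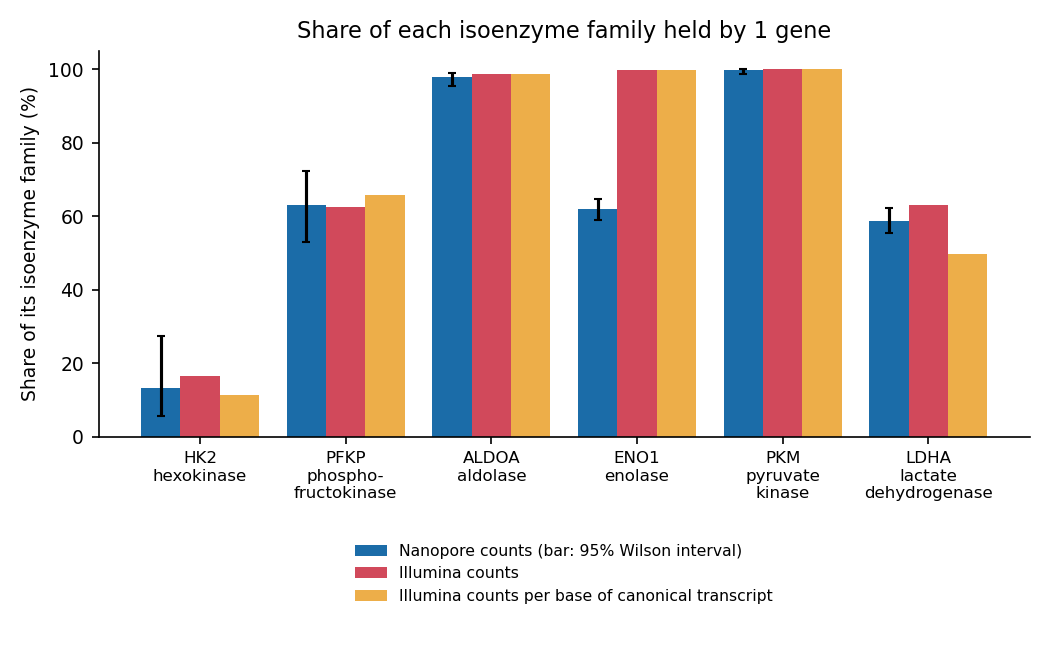
Share, in percent, of 6 isoenzyme families held by the gene named below the bars, from Nanopore counts (with 95% Wilson intervals), Illumina counts and Illumina counts per base of canonical transcript. The libraries stand furthest apart in enolase, where ENO1 holds 62.0% by Nanopore and 99.9% by Illumina.

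The same kind of overlap touched members. Of the 10 genes, 8 share part of their body with at least 1 other annotated gene of the tables, 12 pairs in all. Such overlap is common and not particular to these genes: of the 12414 tested genes, 2810 overlap no other gene. In 4 of the 12 pairs the overlapping gene had at least 5 Nanopore counts. An antisense lncRNA gene, ENSG00000269968 (chromosome 12, 6537794 to 6538370), has all 422 of its exonic bases inside exons of GAPDH. It had 1418 Nanopore counts beside the 1420 of GAPDH, and 126789 Illumina counts beside 1017589, which is 99.9% and 12.5% of the GAPDH count. Its own log2 ratio was 2.41. ALDOA also had an overlapping gene with an equal Nanopore count, and there the Illumina counts were closer to each other than for GAPDH. ENSG00000285043, a protein-coding gene on the same strand that shares 1639 exonic bases with ALDOA, had 282 Nanopore counts, exactly as many as ALDOA, and 192748 Illumina counts, 82.1% of it. An antisense lncRNA at the start of ALDOA, ENSG00000274904, had 35 counts by Nanopore and 242 by Illumina. ENSG00000266953, which shares 542 exonic bases with the end of GPI, had 84 Nanopore counts beside 81 of GPI, but 5134 Illumina counts beside 88407.

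HK2 and PKM, the members with the lowest ratios in CPM, overlap no annotated gene. Of the 2810 tested genes without any overlap, 31.3% were called lower by Nanopore in CPM. Whether the counting of Nanopore reads used their strand, and how a read on several genes was treated, is not given in the sources used here. Counts of GAPDH and its antisense gene are therefore uncertain as separate measurements. LDHB and PFKP showed the same feature: ENSG00000285854 had 330 Nanopore counts, as many as LDHB, and ENSG00000278419 had 93 beside 60 of PFKP. Among the remaining isoenzymes, ENSG00000265168 had 6 Nanopore counts beside 6 of ALDOC and SENP1 had 9 beside 13 of PFKM, while TMEM147-AS1 (26) and DBNL (22) lie over GAPDHS and PGAM2, which had none.

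**Figure D4:**
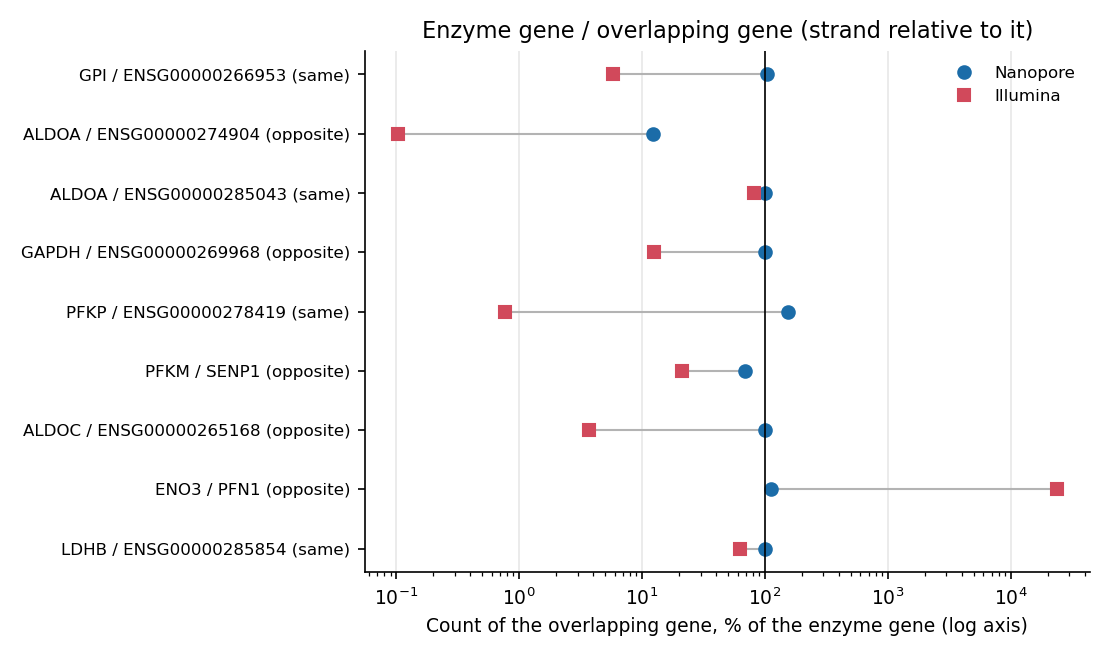
Count of an overlapping gene as a percentage of the count of the enzyme gene it overlaps, in the Nanopore (circles) and Illumina (squares) libraries, on a log axis, for the 9 pairs of members or isoenzymes with at least 5 Nanopore counts in the overlapping gene and any in the enzyme gene. The vertical line marks equal counts; ENSG00000269968 lies at 99.9% of GAPDH by Nanopore and 12.5% by Illumina.

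Glycolytic genes have also left many processed pseudogenes, intronless copies of their mRNA elsewhere in the genome. Annotated pseudogenes named after a member numbered 65 for GAPDH, 6 for LDHA, 5 for PKM, 4 each for TPI1 and ENO1, 2 each for ALDOA and PGK1 and 1 for HK2. Those of GAPDH summed to 12 Nanopore and 4580 Illumina counts, 0.845% and 0.450% of the GAPDH count. Those of TPI1 summed to 0 and 6350 counts, 0% and 3.55%, and those of LDHA to 1 and 6872, 0.212% and 1.69%. No named group reached 4% of its parent in either library, and adding these counts to the parents changed no direction and no call.

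Single copies differed in whether the Nanopore library held them. TPI1P1 (chromosome 1, 76699789 to 76700538) had 6234 Illumina counts (32.5 CPM) and no Nanopore count, where an equal share would have given 13.1. LDHAP4 (chromosome 9, 14921337 to 14922334) had 5448 Illumina counts (28.4 CPM) and none by Nanopore, against 11.5 at an equal share. Both copies were named for their high Illumina counts. They passed the filter on mean CPM through Illumina alone, so no test result is given for them. A count of 0 allows up to 7.44 CPM by Nanopore, taken as 3 counts. In these libraries the Nanopore level was thus at least 4.37-fold lower for TPI1P1 and 3.82-fold lower for LDHAP4. This follows in part from how the copies were chosen. GAPDHP1 (chromosome X, 39787132 to 39788136) had 8 Nanopore counts (19.8 CPM) and 3528 Illumina counts (18.4 CPM), a difference within counting error. Its exact binomial adjusted p was 0.994.

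The sequences show how close these copies are to their parents. TPI1P1 matched the TPI1 mRNA at 736 of 750 aligned bases (98.1%), LDHAP4 matched LDHA at 95.8% and GAPDHP1 matched GAPDH at 96.2%. Of the 50-base words of each copy, 47.6% of TPI1P1, 15.8% of LDHAP4 and 13.6% of GAPDHP1 occur unchanged in the parent. For each pair the 60 coding bases with the most differences are printed, with the differing bases in capitals, from GENCODE release 44 on hg38. The copies lie at chr1:76699808-76699867 (+), chr9:14922027-14922086 (-) and chrX:39787218-39787277 (-). These are coding bases 20 to 79 of TPI1, 249 to 308 of LDHA and 863 to 922 of GAPDH, counted from the A of the start codon:
TPI1: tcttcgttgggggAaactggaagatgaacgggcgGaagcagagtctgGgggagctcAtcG
TPI1P1: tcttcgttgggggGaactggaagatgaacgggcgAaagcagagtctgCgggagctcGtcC
LDHA: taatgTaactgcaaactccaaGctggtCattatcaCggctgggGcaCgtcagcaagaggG
LDHAP4: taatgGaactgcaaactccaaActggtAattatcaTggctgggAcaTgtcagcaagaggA
GAPDH: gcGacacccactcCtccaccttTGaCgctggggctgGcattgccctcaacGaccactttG
GAPDHP1: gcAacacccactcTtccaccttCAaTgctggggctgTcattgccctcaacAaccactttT
The windows hold 5 differences for TPI1, 7 for LDHA and 8 for GAPDH. The longest stretch that TPI1 and TPI1P1 share without a difference is 161 bases, coding bases 384 to 544 and chr1:76700172-76700332 (+) in the copy, printed because no read inside it can tell them apart:
TPI1 and TPI1P1: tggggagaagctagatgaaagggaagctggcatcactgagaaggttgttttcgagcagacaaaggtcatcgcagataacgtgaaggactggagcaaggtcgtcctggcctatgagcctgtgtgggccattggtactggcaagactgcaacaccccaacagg
The longest such stretch was 107 bases for LDHAP4 and 93 bases for GAPDHP1.

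PGAM1, the phosphoglycerate mutase between PGK1 and ENO1 in the pathway, is not a member and was singled out after its values were seen. In CPM it was higher by Nanopore and its neighbours lower, while against TPM by canonical length PGK1 was higher too. It had 148 Nanopore counts, 367 CPM (312 to 431), and 29299 Illumina counts, 153 CPM. On the log2 scale the ratio was 1.26 in CPM (exact binomial adjusted p 2.65e-19) and 1.47 against TPM by canonical length. PGAM1 overlaps no other annotated gene. PGAM4, a retrocopy of PGAM1 that lies inside the annotated body of PGK1 on the opposite strand, matched the PGAM1 mRNA at 98.2% of aligned bases and shared a stretch of 269 coding bases with it. Of the 50-base words of the PGAM1 mRNA, 36.5% occur in PGAM4 or in 1 of 13 named pseudogenes. In the named pseudogenes alone the share was 5.59%, against 27.3% for TPI1, the highest among the members. Protein-coding retrocopies of members were not included, so the 36.5% has no like value among them. PGAM4 had 0 Nanopore and 242 Illumina counts. The part of shared sequence in the PGAM1 ratio was not tested.

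Genes that feed into or leave glycolysis were described from 5 lists of 32 genes, of which 26 were detected by Nanopore, 28 by Illumina and 26 were tested. In CPM, 10 were called lower by Nanopore and 4 higher, and 12 were not called, beside 27.2% and 20.2% of all tested genes. Their median log2 ratio was -0.67. Against TPM by canonical length 4 were called lower by Nanopore and 8 higher, beside 9.86% and 31.4% of all tested genes. The calls of single genes below hold for CPM unless TPM is named.

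Lactate leaves the cell through monocarboxylate transporters. SLC16A3 (MCT4), the exporter of glycolytic cells, was at 350 CPM (Nanopore) and 318 CPM (Illumina). Its log2 ratio was 0.14 in CPM, without a call (exact binomial adjusted p 0.391), but 0.88 against TPM by canonical length, where it was called higher by Nanopore (exact binomial adjusted p 3.96e-10). Its count of 141 Nanopore reads stood beside 140 of CSNK1D, which overlaps it on the opposite strand. SLC16A1 (MCT1) was called lower by Nanopore in CPM, at 57.0 against 154, and so was BSG, the chaperone of both transporters, at 305 against 473. Against TPM the call of SLC16A1 was lost (-0.15, exact binomial adjusted p 0.857) and that of BSG was kept (-0.30, exact binomial adjusted p 0.0447). Per base of canonical transcript, the Illumina level of SLC16A3 was 189 TPM and that of SLC16A1 63.4 TPM.

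Of the enzymes that set fructose-2,6-bisphosphate, the activator of phosphofructokinase, only PFKFB3 was called in CPM, with 5 Nanopore counts and a log2 ratio of -1.96, while TIGAR, a phosphatase that lowers this activator, was at 0.57 without a call. Against TPM by canonical length the calls were exchanged, with PFKFB3 at -0.48 (exact binomial adjusted p 0.742) and TIGAR at 2.70 (exact binomial adjusted p 8.18e-07). The value of TIGAR rests on a canonical transcript of 8209 bases. TIGAR shares 1711 exonic bases with ENSG00000285901 on the same strand, which had 19 Nanopore counts beside 12 of TIGAR. PFKFB2 and PFKFB4 were called on neither scale. Of the 10 tested genes that bring pyruvate into mitochondria and oxidise it, MPC2 (1.00), PDHX (0.76) and DLD (0.46) were higher by Nanopore. PDHA1 (-1.29), PDHB (-0.84), DLAT (-0.83) and PDK4 (-0.74) were lower, and MPC1 (0.41), PDK1 (-0.81) and PDK2 (-0.23) were not called. Subunits of the same pyruvate dehydrogenase complex were thus called in opposite directions in CPM. Against TPM by canonical length MPC2, PDHX and DLD were again called higher and PDHB lower, while PDHA1 (-0.19), DLAT (0.46) and PDK4 (0.46) were not called. MPC2, PDHX and DLD each overlap a gene on the opposite strand that had at least 17 Nanopore counts, as PDHB and DLAT overlap one with at least 10. In the pentose phosphate pathway, which draws glucose-6-phosphate off for NADPH and ribose, PGD (-1.57), TALDO1 (-0.78) and TKT (-0.34) were lower by Nanopore and PGLS (1.36) was higher. RPE (-0.67) and RPIA (-0.74) were not called. Against TPM by canonical length TKT turned to 0.61 and was called higher by Nanopore, and the calls of PGD, TALDO1 and PGLS kept their direction. TKT, transketolase, had the highest CPM of them, at 647 CPM (Nanopore) and 821 CPM (Illumina). In all, 14 genes with at least 5 Nanopore counts overlap genes of these lists, 11 of them on the opposite strand: CSNK1D, DCAF6, LAMB1, APIP, PIH1D2, KANSL1L, LRFN4, NRL, PDK1-AS1, PGLS-DT and ENSG00000272182, and on the same strand ENSG00000275888, ENSG00000280407 and ENSG00000285901.

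Genes of the reverse pathway, gluconeogenesis, were partly absent. FBP1, FBP2, PCK1 and G6PC1 had no count in either library, which allows up to 0.0156 CPM by Illumina, taken as 3 counts. FBP1 encodes the main fructose-bisphosphatase, and Snail is known to repress it in breast cancer cells. These cells without tamoxifen were not analysed here, so its level before Snail activation is not known. PC (42.2 and 49.9 CPM), the mitochondrial PCK2 (22.3 and 24.9 CPM) and the widely expressed G6PC3 (29.8 and 50.9 CPM) were detected by both platforms, and none of the 3 was called in CPM. Against TPM by canonical length PC was called higher by Nanopore (1.19, exact binomial adjusted p 0.00848).

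**Figure D5:**
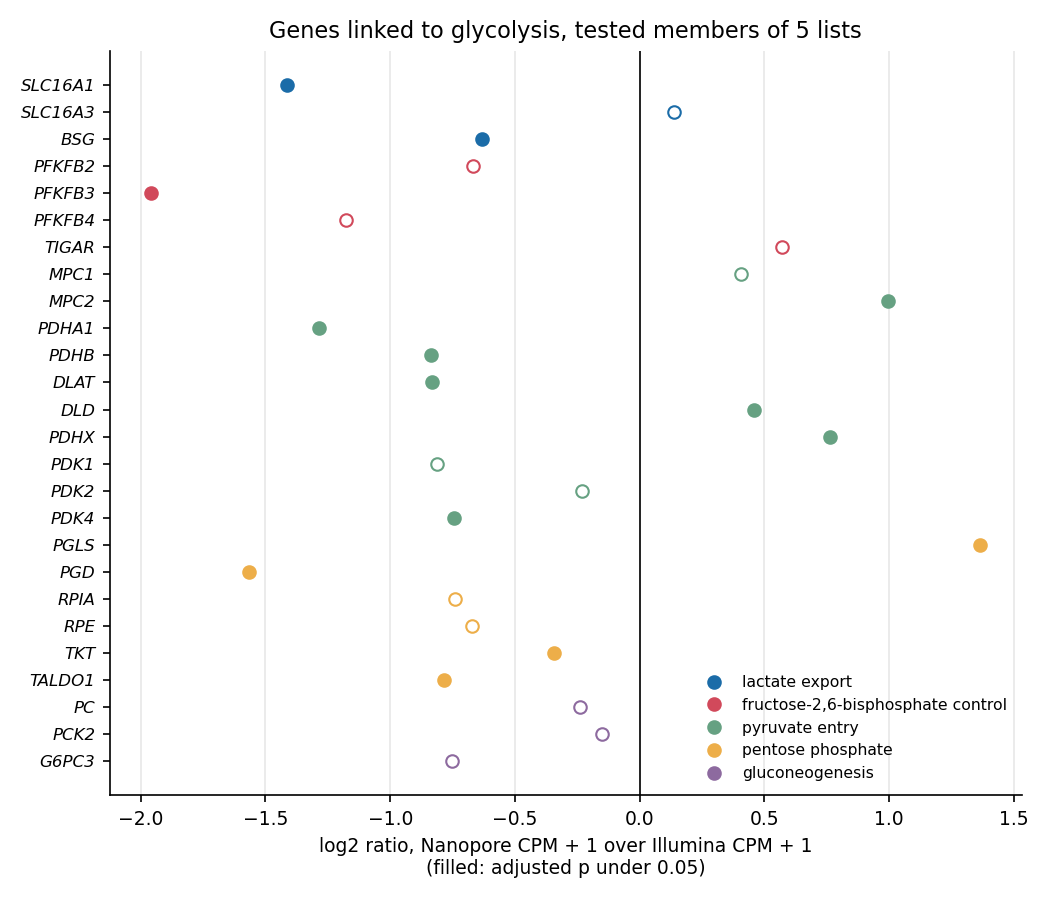
Log2 ratio of the Nanopore to the Illumina level, each in CPM plus 1, for the 26 tested genes of 5 lists linked to glycolysis, coloured by list; filled circles have an adjusted p under 0.05 by the exact binomial test. Filled circles lie on both sides of 0, 10 to the left and 4 to the right.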

How the data were processed

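The deposited files hold whole-number counts per Ensembl gene, not normalized. Per the submitters' processing notes, minimap2 2.11-r797, HISAT2 2.1.0 and featureCounts were used with hg38. Their options, the annotation release and any use of strand are not given in the sources used here. Names, positions and lengths came from GENCODE release 44, in which 58207 of the 58735 identifiers were found.

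Counts were divided by the library total (CPM) or, for Illumina, by transcript length (TPM). With 1 library per platform no model with a spread could be fitted. Genes averaging 5 CPM or more entered a two-sided binomial test, exact and conditional on library totals, adjusted by the Benjamini-Hochberg method over all of them. The test was also run on counts simulated from the Illumina abundances with counting error only. Those counts hold no difference in protocol and no amplification, so they cannot show how the test behaves between 2 platforms. Alternatives were other scalings, lengths, pseudocounts and filters. Ratios have a pseudocount of 1 CPM, which understates differences of rare genes. All 10 members are named. A gene first placed in the linked pathway lists was left out of their counts and is not reported here. Members, lists and tests were chosen with earlier results of these data known. TMM factors came from edgeR 4.0.16. Alternate contigs of hg38 held no copy of a member (minimap2 2.31, at least 80% aligned with at most 5% divergence).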

Additional observations from a re-analysis of the deposited data

How the results depend on the processing

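With 1 library per platform, depth limits mainly HK2 and SLC2A1, with 5 and 13 Nanopore counts. No paired analysis was possible because each group holds 1 library, and no replicate could be left out. Of 90 recomputed ratios of single members, 78 kept their direction and call, 4 lost the call, 2 gained it and 6 changed sign. All 12 of these came from division by length, and the other scalings, pseudocounts and added pseudogenes changed none. TMM and median-ratio scaling raised the ratios by 0.088 and 0.13. The sign changed for GPI (0.21 by canonical, 0.78 by union exonic length), PGK1 (0.94 and 0.32), PKM (0.20, union) and LDHA (0.29, union). The median of the 10 genes became 0.053 with union exonic length, beside 0.42 for all tested genes. With mean transcript length it was -0.96, beside 0.072 for all tested genes. Members called higher by Nanopore numbered 2 by canonical length, 5 by union length and 0 in CPM. Of all tested genes 31.4%, 31.2% and 20.2% were called higher on these scales. Members called lower numbered 3 by union length and 9 in CPM, beside 10.6% and 27.2% of all tested genes. With a 4-fold ratio required, 1 member was called lower by Nanopore in CPM, against 7.31% of all tested genes. With a 2-fold ratio 4 were, against 21.7%. The 4-fold count fell to 0 with a pseudocount of 5 CPM, nuclear protein-coding totals or any length. Shares of all tested genes under those settings are not given here. The members' share of counts was 1.22% (Nanopore) and 1.91% (Illumina) of nuclear protein-coding totals, and 1.56%, 1.20% and 1.75% of Illumina TPM by canonical, union and mean length. Illumina isoenzyme shares also moved with length. Without division, by union and by mean length, HK2 held 16.5%, 18.7% and 10.4%, LDHA 63.0%, 45.8% and 55.9%, and PGAM1 99.935%, 99.804% and 99.910%. Without division and by union length, PFKP held 62.5% and 62.6%, ENO1 99.866% and 99.837%, and PKM 99.988% and 99.968%. By union length ALDOA held 98.1%, and GAPDH held 99.9949%, or 99.9959% by mean length.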
